A study of Mus musculus with 33 samples.

Results

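The comparison described here set normal livers of E2f3a knock-out mice (3aKO, 5 arrays) against normal livers of wild-type mice (wt, 7 arrays), across all genes on the array. The 12 arrays were chosen by the genotype in their titles and by their normalization run, the first of 2, and make up 12 of the 33 columns of values and 12 of the 21 arrays in the study. The remaining arrays of the study are liver tumours of E2f1 knock-in (1KI, 5 arrays) and E2f3b knock-in (3bKI, 4 arrays) mice. Their values stand beside some results, and they also entered the choice of the brightest probe set of each gene. The 1KI arrays were in an alternative fit with all 3 groups as well. All mice were 12 months old and came from a mixed FVB/NT, 129S1/Svlmj and C57BL/6NT background. Total liver RNA was extracted with Trizol, and biotin-labelled cRNA made from 5 ug of it was hybridised to Affymetrix arrays. The labels give no treatment, no sex and no number of copies of the E2f3a allele lost, and do not say whether the numbered livers of a group came from separate animals. The p-values therefore measure the spread between these samples, which may be technical.

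E2F factors bind DNA together with a DP partner, and the retinoblastoma family of pocket proteins (Rb1, Rbl1, Rbl2) holds them inactive until cells enter the cycle. The E2f3 gene makes E2f3a and E2f3b from separate start sites, so the products differ at their amino-terminal ends; E2f3a is usually counted among the activators of S-phase genes. The adult liver is largely quiescent, and its cells spend most of their transcription on metabolism and secreted proteins.

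The start regions of E2f3 are shown because the allele under study removes the product of one of them. RefSeq (GRCm38.p6) lists 2 windows for E2f3, each from 250 bases before to 50 bases after a start, on the minus strand of chromosome 13, with the starts 1672 bases apart. The table used does not say which window belongs to E2f3a and which to E2f3b. Capitals mark a match to the E2F motif, searched on both strands as TTTCCCGC, TTTCGCGC, TTTGCCGC and TTTGGCGC.
E2f3, chr13:29986014-29986313: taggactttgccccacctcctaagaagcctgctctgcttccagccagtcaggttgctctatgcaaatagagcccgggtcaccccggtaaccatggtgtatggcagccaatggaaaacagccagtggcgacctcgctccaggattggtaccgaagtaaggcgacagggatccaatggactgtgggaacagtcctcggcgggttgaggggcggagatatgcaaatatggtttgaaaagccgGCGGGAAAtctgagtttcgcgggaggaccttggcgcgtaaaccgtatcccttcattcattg
E2f3, chr13:29984342-29984641: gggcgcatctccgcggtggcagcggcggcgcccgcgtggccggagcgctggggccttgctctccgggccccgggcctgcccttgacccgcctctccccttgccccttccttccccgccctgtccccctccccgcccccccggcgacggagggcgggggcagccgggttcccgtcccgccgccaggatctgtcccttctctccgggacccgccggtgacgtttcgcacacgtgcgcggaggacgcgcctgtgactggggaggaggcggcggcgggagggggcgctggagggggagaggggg
The upstream window held 1 match, GCGGGAAA, which begins 11 bases before the start, and the other held 0. Over all 32851 RefSeq windows of that length, 744 (2.26%) held a match. Such matches are letters in a window and not measured binding sites.

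Defining hepatocyte genes were abundant in every array, with a mean log2 value of 12.16 to 12.49 over the 15 measured markers and a median log2 change of -0.01. Over all probe sets the arrays had medians of 5.48 to 5.53. Xist, the RNA of the inactive X chromosome, and Y-linked genes split the arrays cleanly into 3 females and 4 males in wt and 3 females and 2 males in 3aKO, so sex is unequal between the groups. The first principal component of all genes (30.35% of the variance) followed sex, with females between 21.2 and 35.1 and males between -37.5 and -5.85. The array at -5.85 was 3aKO replicate 4, apart from the other males (-37.5 to -24.1). On the second component (15.87%), wt replicate 7 lay at 54.1 and wt replicate 6 at 31.5, beyond the other arrays. These wt arrays also had the lowest log2 ratios of the 3' to the 5' actin control probe set, 0.63 and 0.87, against 1.09 to 1.38 in the other arrays (the ratio grows as RNA breaks down).

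E2f3 itself was read first. The brighter of its probe sets, 1434564_at, lay in wt at a lowest log2 value of 6.59, a median of 6.89 and a highest of 7.03, and in 3aKO at 6.43, 6.88, 6.69, 6.79 and 6.42. All 5 3aKO arrays lay below the wt median, but the groups overlapped, and the log2 change of -0.19 ± 0.11 (SE) had a 95% interval of -0.43 to 0.04 and did not pass (limma, adjusted p = 0.700). In females the change was -0.36 ± 0.13 and in males 0.03 ± 0.15. The other probe set, 1427462_at, gave -0.07 ± 0.09. The files do not place either probe set relative to the deleted part, so these values check neither the allele nor the labels.

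Gene by gene, no difference passed when each gene was read by the probe set that was brightest over all 33 columns. limma then called 0 of 18193 genes (0%) at an adjusted p under 0.05. With the probe set brightest over the wt arrays, an alternative chosen after seeing the data that changed the probe set of 210 genes, 2 were called: Sugct (-2.86 ± 0.33, adjusted p = 0.0123) and Yae1d1 (1.45 ± 0.20, adjusted p = 0.0488). That choice rests on wt, which is also in the comparison, so it favours probe sets that are high in wt. It changed the probe set of Sugct but not that of Yae1d1, and its calls are no independent support. At an unadjusted p under 0.05 stood 1357 genes (7.46%), of which 659 (3.62%) were higher in 3aKO and 698 (3.84%) lower. At an unadjusted p under 0.001 stood 18 genes (0.0989%), 9 in each direction. The median log2 change over all genes was 0.00171 and the median size of a change 0.0838, below the median SE of 0.0993. Only 65 genes (0.357%) had a change of at least 1 in size, 36 of them higher and 29 lower, and 26 of the 65 had an unadjusted p under 0.05. In 91 genes (0.5%) the groups did not overlap, with 3aKO above in 39 (0.214%) and below in 52 (0.286%).

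With every probe set tested, 2 of 45037 (0.00444%) were called, 1 lower and 1 higher (0.00222% each), and neither was the brightest of its gene over all 33 columns. The groups did not overlap in 243 probe sets (0.54%). Sugct makes a CoA transferase of mitochondria that acts on glutarate. Its probe set 1421422_at lay in wt between 6.15 and 8.41 with a median of 7.27. In 3aKO it lay at 4.31, 4.48, 4.55, 4.82 and 4.67. Every 3aKO array was below every wt array, and the 3aKO arrays lay close together (SD 0.19, n = 5) where the wt arrays were spread (SD 0.81, n = 7). This probe set fell by 2.86 ± 0.32 on the deposited log2 scale (limma, adjusted p = 0.0199). Its 3aKO values are at the level of skeletal muscle markers in these livers (array means of 4.60 to 4.85), and no detection calls were used here, so no fold is given. The other Sugct probe set, 1442191_at, did not follow it, with 6.05 to 6.69 in wt, 6.18 to 6.80 in 3aKO and a log2 change of 0.07 ± 0.12. In wt 1421422_at was the brighter one (mean 7.42 against 6.34), and its low values in 3aKO and in the tumours made it the dimmer one over all columns.

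The probe set 1457756_at of the zinc finger gene Zkscan8 lay in wt between 3.93 and 4.63 with a median of 4.16, and in 3aKO at 5.32, 5.17, 5.09, 5.33 and 5.28. All 3aKO arrays were above all wt arrays, and the probe set rose by 1.02 ± 0.13 on the log2 scale (limma, adjusted p = 0.0262). It was among the dimmest 40% of probe sets, with wt values below the array means of the muscle markers in wt (4.64 to 4.85), so no fold is given. Its other probe sets gave 0.19 ± 0.08 and 0.14 ± 0.13. Both calls depended on single arrays. Sugct was lost (adjusted p of 0.0628 to 0.138) when any of 3aKO replicates 1, 2, 4 or 5 or wt replicates 3 or 6 was left out, with a change that stayed between -3.07 and -2.69. Zkscan8 was lost (0.0628 to 0.164) without any of 3aKO replicates 1, 2, 4 or 5 or wt replicates 1, 3, 4, 6 or 7, with a change between 0.97 and 1.09. It also missed the threshold with the actin ratio as a covariate (1.01, adjusted p = 0.121). Within sex the changes were -2.75 in females and -2.90 in males for Sugct, and 1.03 and 1.02 for Zkscan8.

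Yae1d1, which encodes an adaptor for maturation of an iron-sulfur protein of ribosome recycling, came closest among the brightest probe sets. Its probe set 1419660_at lay in wt at 6.67, 8.14, 7.02, 6.97, 6.92, 7.24 and 7.12, and in 3aKO at 8.49, 8.80, 8.80, 8.49 and 8.42. The groups did not overlap, with wt replicate 2 far above the other wt arrays, and the log2 change was 1.45 ± 0.20 (limma, adjusted p = 0.0980 over genes and 0.0582 over all probe sets). Without wt replicate 2 the change was 1.61 with a limma adjusted p of 0.000118 over all probe sets. Leaving out the wt array nearest to 3aKO has to raise the change, so that call is no support for a difference. In the second normalization of the same arrays the change was 1.43 with an adjusted p of 0.0347. Yae1d1 also passed with all 3 groups in the fit (0.00372), array weights (0.0426), centred arrays (0.05 when rounded) and only probe sets with 1 symbol (0.049). Among other settings, it missed the threshold with quantile normalization (0.145), the actin ratio as a covariate (0.186) and the replicate block (0.373). Leaving out a 3aKO array gave 0.174 to 0.237, and leaving out any other wt array 0.11 to 0.209. The probe sets of Yae1d1 disagreed in sign: 1449557_at gave 0.73 ± 0.13 with no overlap between groups, and 1419661_at gave -0.32 ± 0.10.

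In RefSeq order Sugct, Yae1d1 and Zkscan8 sit on one chromosome with E2f3, separated from it by 89, 85 and 63 measured genes. By their brightest probe sets, that chromosome carries 702 of the 18032 placed genes (3.89%), 40 of the 1341 placed genes at an unadjusted p under 0.05 (2.98%), 2 of the 18 under 0.001 (11.1%) and 3 of the 91 without overlap (3.3%). The second gene of those 18 on it is Id4, an inhibitor of helix-loop-helix factors, 106 measured genes from E2f3, with a log2 change of 1.31 ± 0.31 and overlapping groups. In the tumours of both knock-in groups, Sugct 1421422_at lay at 4.10 to 4.88 (1KI) and 3.78 to 5.77 (3bKI, second normalization, where wt lay at 5.88 to 8.15), and Yae1d1 1419660_at at 8.54 to 8.81 and 8.21 to 8.73. Zkscan8 1457756_at lay at 5.00 to 5.34 in 1KI, near 3aKO, and at 4.12 to 4.55 in 3bKI, where wt lay at 3.53 to 4.28 and 3aKO at 4.96 to 5.12. The labels name the strains of the mixed background but not which strain's segment surrounds E2f3 in each mouse, so the allele and linked variants cannot be told apart.

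**Figure D1:**
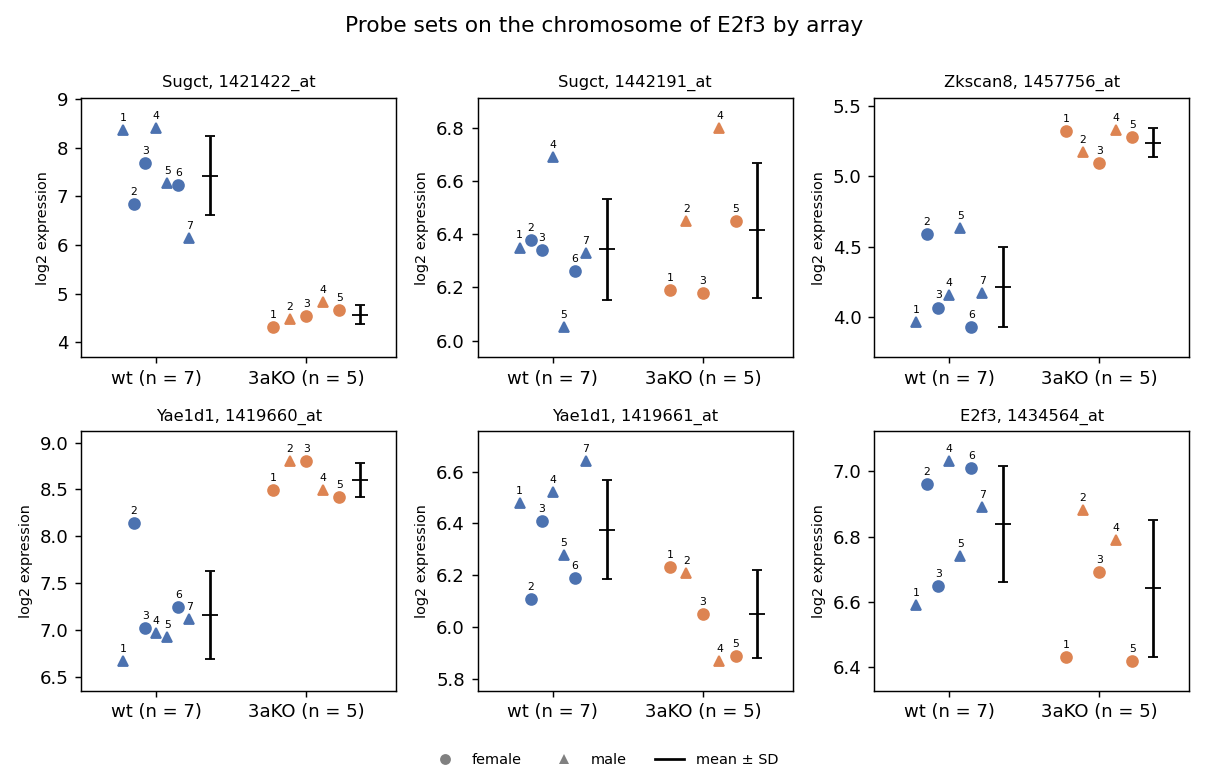
Log2 expression by array in wt (blue, n = 7) and 3aKO (orange, n = 5) for probe sets of Sugct, Zkscan8, Yae1d1 and E2f3; circles are females and triangles males as read from Xist, digits are replicate numbers, and bars are mean ± SD. The 3aKO arrays lie below all wt arrays for Sugct 1421422_at (at most 4.82 against at least 6.15) and above them for Zkscan8 and Yae1d1 1419660_at, while Sugct 1442191_at, Yae1d1 1419661_at and E2f3 overlap.

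Probe sets that are not the brightest of their gene carried more of the low p-values, and in this tail most were higher in 3aKO. Of the 79 probe sets at an unadjusted p under 0.001 (0.175% of 45037), 58 were higher in 3aKO (0.129%) and 21 lower (0.0466%). Among the brightest probe sets of the 18193 genes, 9 were higher (0.0495%) and 8 lower (0.044%). These p-values come from the fit of every probe set, so the counts differ slightly from those of the fit of genes alone given above. Among the 16752 other probe sets of those genes, 36 were higher (0.215%) and 8 lower (0.0478%). Among the 10092 with no symbol or several, 13 were higher and 5 lower. At an unadjusted p under 0.05 stood 3383 of all 45037 probe sets, and the kinds differed in direction. There were 653 higher and 691 lower among the 18193 brightest, and 792 and 491 among the 16752 other probe sets. Among the 10092 with no symbol or several there were 205 and 551. The median log2 change of each whole kind was 0.00, 0.01 and -0.03 in that order, so the last kind was shifted slightly as a whole. With brightness taken over the wt arrays, the brightest gave 8 higher and 9 lower under 0.001, and the others 37 and 7. Levels differ between these kinds, with a median log2 value of 6.49, 5.41 and 4.44 in that order, and the part of level in the pattern was not tested. With the actin ratio as a covariate the brightest gave 17 higher and 8 lower under 0.001, and the other probe sets of a gene 38 and 9. Those with no symbol or several then gave 7 and 2. Under 0.05 the counts with that covariate were 650 and 532, 751 and 429, and 199 and 418 in the same order.

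The 36 higher probe sets belong to 34 genes and had a median log2 change of 0.49. The brightest probe sets of the same genes had a median of 0.18, above 0 for 32 of the 36 and higher at an unadjusted p under 0.05 for 14. A gene with more than 1 of the 36 is counted for each. Over all genes 50.5% lay above 0 and 3.62% were higher at that p. The 36 were picked for being higher, and all probe sets of a gene read the same samples, so these counts are no independent support. Some agree across probe sets: Glul, the glutamine synthetase of pericentral hepatocytes, gave 0.42 ± 0.10 and 0.22 ± 0.11, and Uba6, a ubiquitin-activating enzyme, 0.47 ± 0.11 and 0.32 ± 0.10, naming the brightest probe set second. Others moved apart: Secisbp2l, a paralogue of the selenocysteine insertion factor, gave 0.96 ± 0.22 against 0.01 ± 0.09, Ddx6, an RNA helicase of P-bodies, 0.82 ± 0.16 against 0.07 ± 0.12, and Akap13, an A-kinase anchoring protein, 0.88 ± 0.19 against 0.14 ± 0.10. Sqstm1, the autophagy receptor p62, gave 0.59 ± 0.10 against 0.19 ± 0.09. None of these passed (limma, adjusted p = 0.303 to 0.541), and they were chosen after their values were seen.

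**Figure D2:**
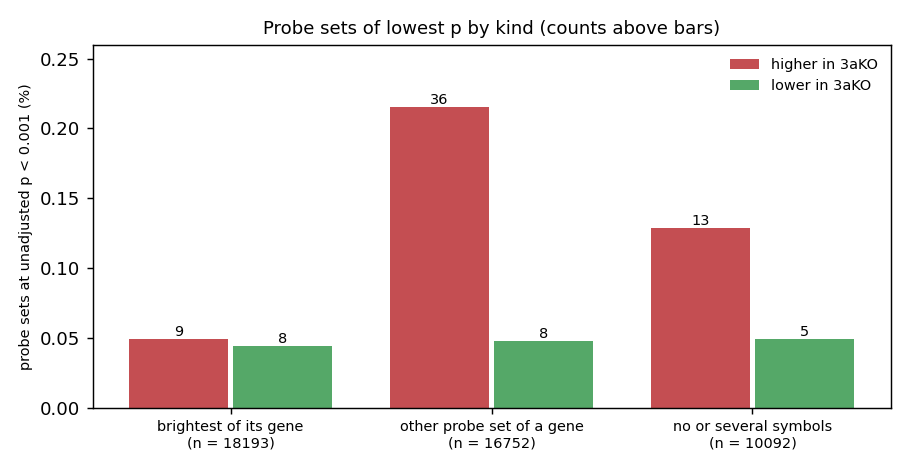
Share of probe sets (percent, vertical axis) at an unadjusted p under 0.001 that were higher (red) or lower (green) in 3aKO, for the brightest probe set of each gene, the other probe sets of those genes and probe sets with no or several symbols; counts stand above the bars. The tallest bar is the 0.215% of other probe sets that were higher, against 0.0478% lower.

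Of the 18 genes at an unadjusted p under 0.001, 11 also had no overlap between the groups, leaving predicted genes out. The 5 higher ones were Yae1d1, Tmtc2, an endoplasmic reticulum protein with tetratricopeptide repeats (1.14 ± 0.25), Chmp7, a subunit of the ESCRT-III membrane remodelling machinery (0.51 ± 0.09), Slc35e2, a putative sugar-nucleotide carrier (0.51 ± 0.12), and Taf7, a subunit of TFIID (0.46 ± 0.09). Tmtc2 lay in wt between 4.77 and 6.33 with a median of 5.81, and in 3aKO at 7.38, 6.78, 6.52, 7.04 and 6.65. Chmp7 lay between 8.06 and 8.35 (median 8.25) in wt and at 8.58, 8.72, 8.97, 8.95 and 8.52 in 3aKO, so that the groups were apart by less than the range of either. The 6 lower ones, Sohlh2, Khdrbs2, Adam21, Fgf2os, Tcl1 and Cfap45, had changes of -0.46 to -0.28. Several of them are known for germ cells or testis rather than liver. Fgf2os, Tcl1 and Cfap45 lay between 3.47 and 4.30 over both groups, below the array means of the muscle markers (4.60 to 4.85). Sohlh2, Khdrbs2 and Adam21 lay between 4.54 and 6.17. Apart from Yae1d1, the 11 genes had adjusted p-values of 0.573 to 0.641 in limma and did not pass.

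Among genes of urea cycle and amino acid breakdown, the largest change was that of Etnppl, the phosphoethanolamine phospho-lyase of hepatocytes. It lay in wt between 8.42 and 9.40 with a median of 8.90, and in 3aKO at 11.37, 11.56, 9.39, 10.78 and 10.69. All 3aKO arrays but replicate 3 lay far above wt, and replicate 3 lay at the upper edge of wt. The log2 change was 1.83 ± 0.32, or 3.55-fold (limma, adjusted p = 0.569), and 1.28 for the mean of its probe sets. Without 3aKO replicate 3 it was 2.17 with an adjusted p of 0.00889, the 1 gene called there. Leaving out the lowest 3aKO array has to raise the change, so that call is no support for a difference. With any other array left out the adjusted p was 0.451 to 0.868. A probe set with no symbol, 1441430_at, took the same course: 5.32 to 5.85 in wt, and 7.73, 7.76, 6.07, 7.05 and 7.54 in 3aKO, with no overlap, again with replicate 3 lowest (1.63 ± 0.24, adjusted p = 0.122, and 1.92 with 0.000446 without replicate 3). The same limit holds for 1441430_at, which gave an adjusted p of 0.238 to 0.513 with any other array left out. It was chosen after its values were seen.

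Liver function was then read through gene lists. Over all genes, 50.5% had a change above 0, and 3.62% and 3.84% were higher and lower at an unadjusted p under 0.05; no list has a test here. In whole liver, fewer cells of a type and less RNA per cell cannot be told apart. In the list of urea cycle enzymes and amino acid breakdown, 27 of 32 measured genes lay above 0, with 6 higher and 0 lower at an unadjusted p under 0.05 and a median of 0.17. Etnppl was followed by Hgd, of tyrosine breakdown (0.39 ± 0.10), Gnmt, which uses up S-adenosylmethionine (0.34 ± 0.09), and Amdhd1, of histidine breakdown (0.42 ± 0.11). Gnmt lay between 13.70 and 14.16 (median 13.94) in wt and at 14.32, 14.32, 14.24, 14.25 and 14.35 in 3aKO, without overlap and with a 3aKO spread of 0.05 (SD) against 0.18 in wt. The list's median was 0.16 in females and 0.09 in males, and 0.11 without wt replicate 3.

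Genes of the pericentral zone, the hepatocytes around the central vein where Wnt signals act, lay above 0 in 17 of 19 (5 higher, 0 lower, median 0.16). They included Notum, a secreted inhibitor of Wnt proteins (0.49 ± 0.13), Nkd1, an inhibitor inside the cell (0.38 ± 0.10), the R-spondin receptor Lgr5 (0.47 ± 0.19) and Oat, ornithine aminotransferase (1.06 ± 0.32). Nkd1 lay between 5.53 and 5.94 (median 5.88) in wt and at 6.32, 6.00, 6.10, 6.03 and 6.44 in 3aKO, narrowly apart. Oat lay between 11.07 and 13.04 (median 12.35) in wt and at 13.67, 13.08, 13.59, 12.52 and 13.73 in 3aKO, with replicate 4 inside the wt range. Periportal genes lay above 0 in 8 of 11, and 0 stood at an unadjusted p under 0.05. Their median was 0.09, and it was 0.14 without 3aKO replicate 2 or wt replicate 7 and 0.18 without 3aKO replicate 4. Hsd17b13, a lipid droplet protein, split the 3aKO arrays into 7.31 and 7.47 against 10.54, 12.51 and 12.00, and wt into 6.93 to 8.10 and 1 array at 11.24 (1.94 ± 0.98). Its other probe set, the brighter one in wt, had the opposite sign (-1.76 ± 0.69). Adjusted p was 0.641 to 0.688 in limma for the genes named in these lists other than Etnppl.

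NRF2 targets and glutathione enzymes, which detoxify electrophiles, lay above 0 in 23 of 26, with 8 higher, 0 lower and a median of 0.30. Gsta4, a glutathione transferase for lipid peroxidation products, lay between 10.16 and 10.83 (median 10.60) in wt and between 10.81 and 11.18 in 3aKO, so that the groups met only at their edges (0.48 ± 0.11). Gsta2 lay in wt between 6.47 and 9.49 with a median of 8.57, and in 3aKO at 9.71, 10.83, 9.06, 10.70 and 9.90 (1.73 ± 0.48). The lowest wt values of Gsta2 belonged to male arrays, replicates 4 and 7, and the change was 0.41 in females and 3.09 in males. The list as a whole had a median of 0.06 in females and 0.65 in males. Its mean log2 value was 9.19 to 9.79 in wt males and 10.12 and 10.33 in 3aKO males, against 9.93 to 9.99 in wt females and 9.91 to 10.24 in 3aKO females. The difference between the sexes was tested gene by gene with an interaction term, and limma called 0 of 18193 genes (0%), the lowest adjusted p being 0.999, and 579 genes (3.18%) had an unadjusted p under 0.05. Gstt2 (0.48 ± 0.15) and Nqo1 (0.53 ± 0.23) also lay among the 8. None passed over all genes (limma, adjusted p of at least 0.641).

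Bile acid genes lay above 0 in 17 of 23 (5 higher, 0 lower, median 0.11). The median was 0.32 in females and 0.04 in males. It fell to 0.02, 0.04 and 0.06 without wt replicate 6, 3aKO replicate 2 and wt replicate 2, and was 0.17 to 0.19 without wt replicate 5 or 3aKO replicates 4 or 5. Abcb11, the bile salt export pump, lay between 11.42 and 11.83 (median 11.58) in wt and at 12.04, 12.04, 11.99, 12.09 and 11.67 in 3aKO, with replicate 5 apart from the others (0.37 ± 0.10). Cyp39a1, an oxysterol hydroxylase, lay between 6.99 and 8.23 (median 7.96) in wt and at 9.48, 8.24, 8.66, 8.33 and 8.92 in 3aKO (0.84 ± 0.24). Klb, the co-receptor for FGF15 and FGF21, gave 0.39 ± 0.12. Cytochromes P450 for drugs and steroids lay above 0 in 21 of 29, 4 higher and 0 lower, with a median of 0.07 (0.14 without 3aKO replicate 3, and 0.03 and 0.04 without wt replicate 7 and 3aKO replicate 4). Cyp2b10, a target of the receptor CAR, had the largest change of them (1.70 ± 0.64), with 0.24 in females and 2.83 in males. In wt it was at 5.94 to 6.47 in males and 8.37 to 9.22 in females. In 3aKO it was at 7.53 and 10.45 in the males, replicates 2 and 4, and at 9.10, 8.57 and 9.01 in the females. None of these passed (limma, adjusted p of at least 0.641).

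Genes of the acute phase response, whose products hepatocytes release into blood during inflammation, lay below 0 in 22 of 25, with 0 higher and 11 lower at an unadjusted p under 0.05 and a median of -0.36. Saa1, serum amyloid A, lay in wt at 11.01, 13.53, 12.76, 14.00, 10.20, 9.64 and 11.27, and in 3aKO at 9.02, 8.90, 10.36, 8.38 and 10.33. The wt arrays thus spanned a range in which replicates 2, 3 and 4 were highest and replicates 5 and 6 lay within the 3aKO range (-2.37 ± 0.72, limma adjusted p = 0.641). Hp, haptoglobin, gave -0.36 ± 0.11, Serpina3n -0.78 ± 0.25 and Lcn2, lipocalin 2, -2.37 ± 0.95. The mean log2 value of the list lay between 11.41 and 12.92 in wt (median 12.03), highest in replicates 4 and 2, and between 11.17 and 11.82 in 3aKO (median 11.51). Beside the acute phase genes, neutrophil markers had a median change of -0.02 and macrophage markers 0.04, the latter between -0.10 and 0.14 as single arrays were left out. The list's median was -0.21 in females and -0.56 in males, and ran from -0.46 to -0.25 as single arrays were left out. Complement and coagulation genes lay below 0 in 17 of 28 (0 higher, 2 lower, C2 at -0.44 ± 0.15 and Cfb at -0.23 ± 0.09), with a median of -0.11 that was -0.07 without wt replicate 1 or 4.

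**Figure D3:**
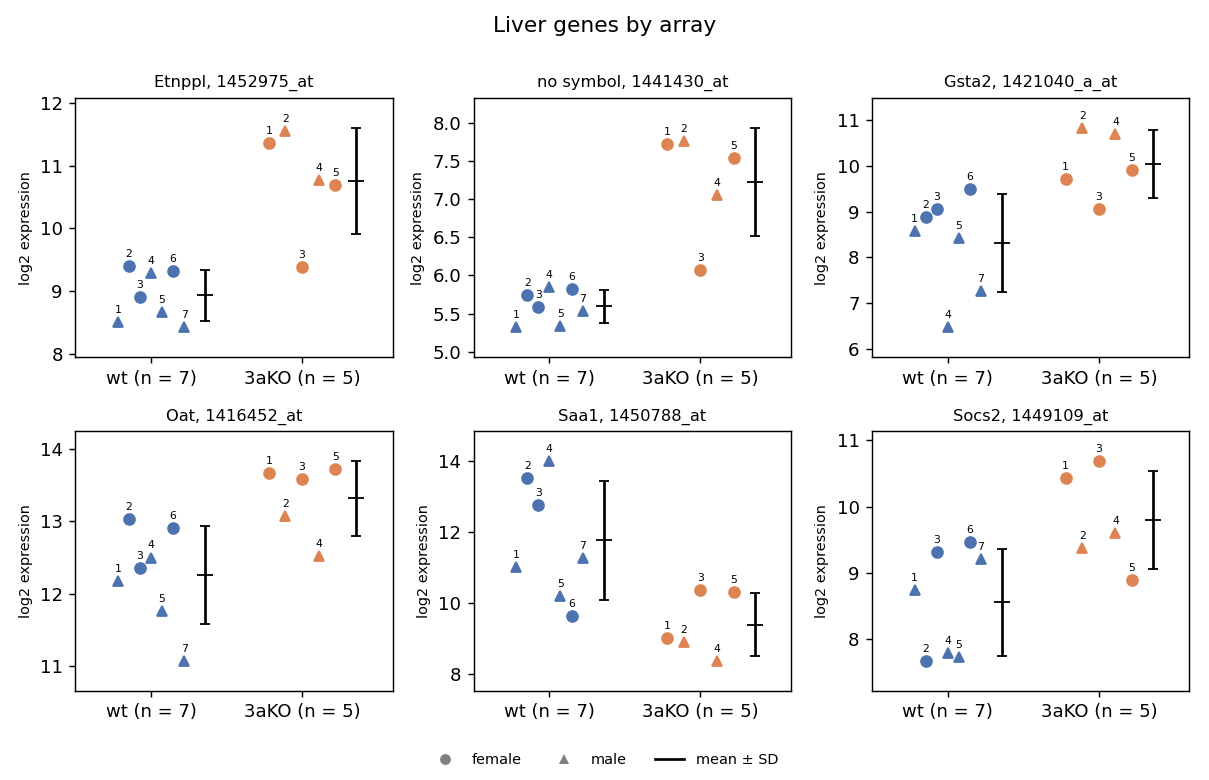
Log2 expression by array in wt (blue, n = 7) and 3aKO (orange, n = 5) for Etnppl, the probe set 1441430_at without a symbol, Gsta2, Oat, Saa1 and Socs2; circles are females, triangles males, digits replicate numbers and bars mean ± SD. In Etnppl and 1441430_at 3aKO replicate 3 is the lowest of its group (9.39 and 6.07), and Saa1 spans 9.64 to 14.00 in wt.

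The lipid synthesis lists had medians of opposite sign in females and males. Fatty acid synthesis genes lay above 0 in 13 of 20 with a median of 0.19, and the median was -0.51 in females and 0.68 in males. It turned to -0.08 without wt replicate 1, to -0.01 without 3aKO replicate 4 and to -0.30 with sex as a covariate and replicate 4 left out, was 0.07 and 0.09 without 3aKO replicate 3 and wt replicate 4, and reached 0.34 without 3aKO replicate 2 and 0.32 without wt replicates 3 or 6. Cholesterol synthesis genes lay below 0 in 14 of 20 (median -0.14, with -0.49 in females and 0.21 in males). That median was 0.01 without 3aKO replicate 1, -0.08 to -0.03 without wt replicates 2, 3, 5 or 7, -0.24 and -0.25 without 3aKO replicate 3 and wt replicate 4, and -0.40 without wt replicate 1. Neither list's median thus kept its sign. Neither list had a member at an unadjusted p under 0.05. PPARalpha targets and fatty acid oxidation genes lay above 0 in 24 of 29 with a median of 0.13 (0.08 without 3aKO replicate 1 or wt replicate 7). The median was -0.05 in females and 0.10 in males, 0.05 with the actin ratio as a covariate and 0.03 with sex and the actin ratio. Of this list 2 were higher, among them Hadha of the mitochondrial trifunctional protein (0.27 ± 0.09), and 2 lower, among them Ppara itself (-0.47 ± 0.17). Subunits of the respiratory chain lay above 0 in 30 of 35 but by little (median 0.07), with 1 at an unadjusted p under 0.05.

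Cell cycle genes that E2F factors regulate had small changes. DNA replication and G1/S genes lay above 0 in 36 of 47, with 4 higher, 0 lower and a median of 0.11. The median was -0.05 in females and 0.25 in males, and 0.07 without wt replicate 5. With sex as a covariate it was 0.09, and 0.02 with 3aKO replicate 4 also left out, an alternative chosen after seeing the data. The mean log2 value of the list was 6.92 to 7.12 in wt females and 6.64 to 6.81 in wt males. In 3aKO it was 6.88 to 7.04 in females and 6.87 to 7.08 in males. The 4 were Dnmt1, the maintenance DNA methyltransferase (0.29 ± 0.09), Ung, uracil-DNA glycosylase (0.42 ± 0.15), Cdt1, a licensing factor of replication origins (0.59 ± 0.25), and Gins3, of the replicative helicase (0.16 ± 0.07). Dnmt1 lay between 7.49 and 7.84 (median 7.63) in wt and at 7.85, 7.87, 7.76, 8.23 and 7.96 in 3aKO. Cdt1 was spread from 5.86 to 7.87 in wt and lay at 7.39, 7.38, 7.57, 7.51 and 7.23 in 3aKO. Neither gene separated the groups, and none of the 4 passed (limma, adjusted p of 0.641 or more).

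Mitosis and G2/M genes lay above 0 in 22 of 38 (1 higher, 1 lower, median 0.03), the higher one being Cdk1, the mitotic kinase (0.48 ± 0.16). Targets of p53 lay above 0 in 10 of 21, with 0 at an unadjusted p under 0.05; Cdkn1a, the inhibitor p21, gave -0.72 ± 0.44. In the E2F family and its partners 14 of 17 lay above 0 (1 higher, 0 lower, median 0.15). That median was 0.08 without 3aKO replicate 5 and 0.08 with the mean of a gene's probe sets. The DP partner Tfdp1 lay between 8.35 and 8.71 (median 8.48) in wt and at 8.64, 8.81, 8.95, 8.96 and 8.69 in 3aKO (0.31 ± 0.08, limma adjusted p = 0.641). The repressors E2f7 and E2f8 gave -0.33 ± 0.46 and 0.53 ± 0.29, Rb1 gave 0.24 ± 0.15 and the activator E2f1 0.03 ± 0.09. Of the 14368 measured genes with a RefSeq start window, 546 held the E2F motif; 331 of the 546 (60.6%) lay above 0, 29 were higher and 12 lower at an unadjusted p under 0.05, and their median was 0.03. All 14368 had 51.4% above 0, 541 higher, 525 lower and a median of 0.01. As shares, 5.31% of the motif genes were higher and 2.2% lower, against 3.77% and 3.65% of all 14368. With quantile normalization the medians were 0.00 and -0.01. The motif genes were also brighter (median array mean in wt of 7.19 against 6.76), and the part of level was not tested.

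**Figure D4:**
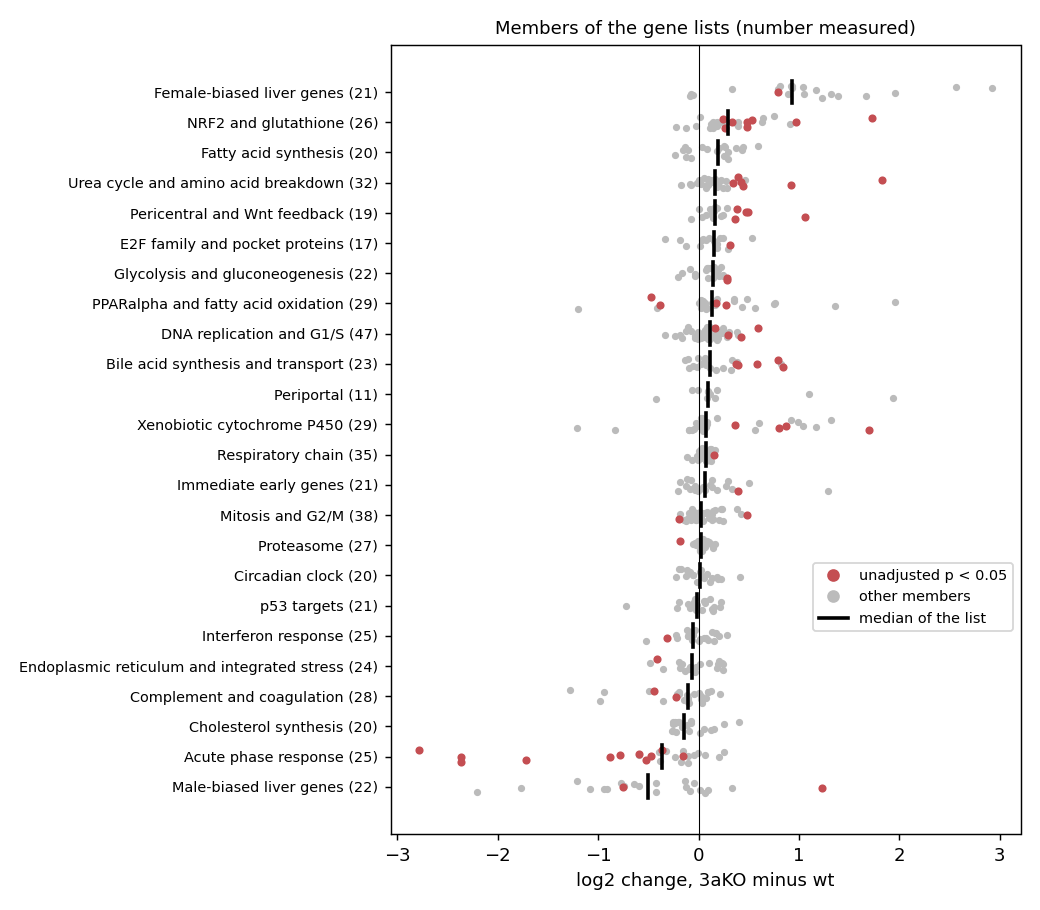
Log2 change of each measured member (horizontal axis, 3aKO minus wt) in the pathway lists (vertical axis, number measured in parentheses); red points have an unadjusted p under 0.05 and black bars are medians. Medians run from -0.51 for male-biased to 0.93 for female-biased liver genes, and 11 acute phase members are red and below 0.

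Growth hormone pulses set sex-biased expression in mouse liver, and these genes showed the largest list medians: 0.93 over 21 measured female-biased genes (18 above 0, 1 higher at an unadjusted p under 0.05) and -0.51 over 22 male-biased genes (17 below 0, 1 higher and 1 lower). The 3aKO group holds more females than wt in share, and a sex covariate took the medians to 0.62 and -0.22. Without 3aKO replicate 2 they were 1.58 and -0.85. The female-biased median was 1.40 without wt replicate 6, and the male-biased median -0.21 without wt replicate 5 and -0.32 without 3aKO replicates 1 or 5. Much of that remainder sat in 1 array. The mean log2 value of the female-biased genes was 9.83 to 9.99 in wt females, 9.99 to 10.16 in 3aKO females and 6.19 to 6.89 in wt males. Of the 3aKO males, replicate 2 lay at 6.53, inside the wt males, and replicate 4 at 8.69, between the sexes. Its male-biased genes were at 9.57, below every other male (10.13 to 10.76) and above every female (7.78 to 8.34).

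Replicate 4 had male levels of Xist (6.47) and of the Y-linked genes (7.04). Sult3a1, a female-biased sulfotransferase, lay at 10.15 in it, against 4.51 to 6.85 in wt males, 7.05 in 3aKO replicate 2 and 11.69 to 13.61 in females. With sex as a covariate and replicate 4 left out, an alternative chosen after seeing the data, the median of the female-biased genes was 0.14 and that of the male-biased genes 0.11. The medians in males for these lists (0.74 and -0.24) come from 2 3aKO arrays that differ in this way. For Cyp2b10, both of them lay above the wt males. Socs2, the feedback inhibitor of growth hormone signalling, had the highest change of the male-biased list, and its values overlapped between the sexes. In wt (median 8.74) its females lay at 7.68, 9.31 and 9.47 and its males at 8.74, 7.80, 7.73 and 9.21. In 3aKO its females lay at 10.43, 10.68 and 8.90 and its males at 9.38 and 9.60. Its highest value in each group was in a female. Its change was 1.18 in females and 1.12 in males (1.23 ± 0.40 over both, limma adjusted p = 0.641), and 0.59 for the mean of its probe sets.

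**Figure D5:**
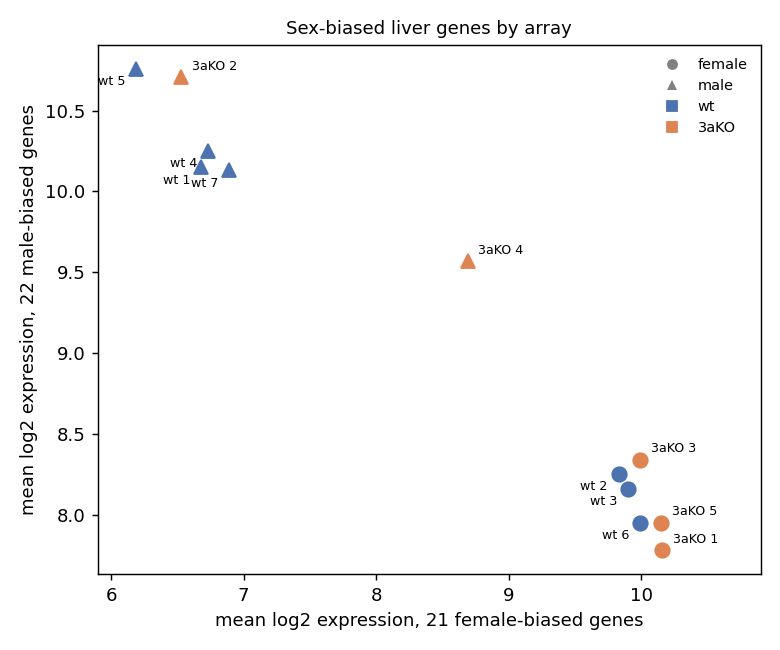
Mean log2 expression of 21 female-biased (horizontal axis) and 22 male-biased (vertical axis) liver genes in each array; circles are females and triangles males by Xist, blue is wt and orange 3aKO. Replicate 4 of 3aKO, at 8.69 and 9.57, lies alone between the males at upper left and the females at lower right.

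Markers of other cell types had small changes. Over 12 marker lists the medians ran from -0.10 to 0.12, several of them turning in sign as single arrays were left out. The highest was that of stellate cells and matrix genes, with 17 of 21 above 0. It was 0.19 without 3aKO replicate 3 and 0.07 without 3aKO replicate 5. The 1 gene of this list higher at an unadjusted p under 0.05 was the pericyte receptor Pdgfrb (0.30 ± 0.10), and the list's highest change was 0.63. The cholangiocyte and progenitor antigen Cd24a lay between 5.01 and 6.13 (median 5.58) in wt and at 6.01, 5.85, 7.10, 6.40 and 6.19 in 3aKO (0.79 ± 0.22), with 8 of 13 cholangiocyte markers above 0 and a median of 0.04. In endothelium, Plvap, of capillary diaphragms, gave 0.57 ± 0.18, with a list median of 0.03. Ccr2 of monocytes gave -0.28 ± 0.10, against most of its macrophage list, in which 12 of 19 lay above 0 (median 0.04). Elane of neutrophils gave -0.34 ± 0.11, in a list with 5 of 12 above 0 and a median of -0.02. None passed (limma, adjusted p = 0.641), and lists of adipocyte, muscle and pancreas markers had medians of -0.08, -0.10 and -0.07.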

How the data were processed

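Deposited values were log2 expression values per Affymetrix probe set, made by the authors in 2 normalization runs; the summarisation and normalization method is not given in the sources used here. The first run was used, and the second, of the same arrays, only as a repeat of the processing. Of 45101 probe sets, 64 array controls were left out and 45037 tested; 34945 carried 1 symbol in the platform annotation, 932 several and 9160 none. A gene was represented by its brightest probe set over all 33 columns, tumours included (18193 genes). Start windows and gene order came from RefSeq (GRCm38.p6).

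3aKO was set against wt with limma 3.58.1 (lmFit, eBayes) in R 4.3.3, two-sided, with Benjamini-Hochberg adjustment over all genes or probe sets and calls at an adjusted p under 0.05; the script was tested on simulated data. Errors of changes are moderated SE. Sex was read from Xist (log2 above 10) and, for males, from 3 Y-linked genes whose mean log2 value was above 5. The number of arrays limits the precision.

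Named were E2f3 and its family, called probe sets with their gene's others, up to 12 genes a direction with an unadjusted p under 0.001 and no overlap, and up to 4 members of lowest p per list; Id4, Lcn2, Nqo1 and the genes so marked were chosen after their values were seen. The members and the 36 lists were chosen with earlier results of these data known. Replicate numbers did not pair the arrays: deviations of same-numbered arrays correlated at -0.469 to 0.297.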

Additional observations from a re-analysis of the deposited data

Results flagged for a closer look

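In 136 groups of arrays checked, 6 held 1 array far from the rest of its group, which chance alone gives in about 1 of 20 groups. Yae1d1 (1419660_at) was at 8.14 in wt replicate 2, with the other wt arrays at 6.67 to 7.24. E2f7 was at 7.20 in wt replicate 5, against 5.15 to 5.80. Hsd17b13 was at 11.24 in wt replicate 3, against 6.93 to 8.10. Ppara was at 10.14 in wt replicate 5, against 10.72 to 11.12. Rb1 was at 6.10 in 3aKO replicate 1, against 6.57 to 6.68, and Abcb11 at 11.67 in 3aKO replicate 5, against 11.99 to 12.09.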

How the results depend on the processing

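With 1 probe set per gene, 1 gene was called in place of 0 with all 3 groups in the fit (Yae1d1) and with the replicate number as a block (Socs2, 1.54, adjusted p = 0.0360 in limma), and 2 (Sugct and Yae1d1) with the probe set brightest over the wt arrays, where Hsd17b13 turned to -1.76; single arrays left out gave 0 to 1. Counts at an unadjusted p under 0.05 fell to 819 in males only and 720 without the dimmest 40% of genes, and with single arrays left out ran from 1029 to 1508. With every probe set, the count called higher was 0 with the actin ratio, in females only, in males only and without dim probe sets, and 2 with all 3 groups, array weights, centred arrays, the second normalization, the 34945 probe sets with 1 symbol (chosen after seeing the data) and the replicate block, with 0 to 3 as single arrays were left out. The count called lower was 0 with a trended robust prior and in males only, and 0 to 1 with single arrays left out. Counts at an unadjusted p under 0.05 were 2076 in males only and 1924 without dim probe sets. With the replicate block Zkscan8 gave 0.96 (adjusted p = 0.592). Directions turned for values that had not passed: E2f3 1427462_at 0.01 with the actin ratio and with the block, E2f3 1434564_at 0.03 and Egr1 -0.14 in males only, and in females only E2f1 -0.10, E2f7 0.29 and Cdkn1a 0.16; E2f1 ran from -0.00 to 0.08 with single arrays left out, and with the sex covariate and without 3aKO replicate 4, E2f1 gave -0.01 and E2f7 0.06. The causes were not tested.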

Other observations

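Some further groups that the text has not described had small medians, several of which turned in sign as single arrays were left out. Proteasome subunits had a median of 0.02 (21 of 27 above 0), circadian clock genes 0.01 (11 of 20), interferon response genes -0.06 (11 of 25, with Mx2 at -0.31 ± 0.13) and genes of endoplasmic reticulum and integrated stress -0.07 (8 of 24). Glycolysis and gluconeogenesis genes lay above 0 in 17 of 22 (median 0.14, and 0.08 without 3aKO replicate 5), among them Aldoa, an aldolase (0.28 ± 0.09), and Slc2a2, the hepatocyte glucose transporter (0.28 ± 0.11). Immediate early genes had a median of 0.06; Egr1 ranged from 6.46 to 8.74 in wt and lay at 12.60, 9.06, 9.61, 6.82 and 7.26 in 3aKO, with replicate 1 highest, and Klf6 gave 0.39 ± 0.12. None of these passed (limma, adjusted p of at least 0.641).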
